A study of Rattus norvegicus with 8 samples.

Results

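Oligodendrocytes are the glial cells that wrap axons in myelin. They arise from dividing precursor cells, pass through a committed and newly formed stage, and then express the enzymes, membrane proteins and secreted proteins of the mature cell. In the rat hypothalamus, as in the rest of the forebrain, much of this maturation takes place in the first weeks after birth, when the offspring still depend on milk. The genes described here are 37 genes of this lineage other than the structural proteins of myelin, such as myelin basic protein. They were taken from a list of symbols and grouped by stage. The list was chosen with earlier results of these data known, so its counts below are descriptions. On the arrays 31 of the 37 had a uniquely named probe set, among 14506 genes in all. Each of the 31 had 1 such probe set, so no choice between probe sets was needed. Olig2, Nkx2-2, Myrf, Tcf7l2, Gal3st1 and Anln had none and were not analysed here.

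RNA came from the hypothalamus of female Sprague-Dawley rats aged 21 days and was hybridised to Affymetrix Rat Gene 1.0 arrays, 1 array a sample. Con-s and Con-l were offspring of normally fed mothers, given saline and leptin. CR-s and CR-l were offspring of mothers whose calories were cut by 50% from gestation day 11 to 21 and again after birth, given saline and leptin. Treatment with saline, or with leptin, the adipose hormone that lowers food intake, ran from postnatal day 2 to 8. Wording in the sample labels leaves unclear whether pups or mothers received it, and the design note writes Con-l as Con-r. Each group held 2 arrays, replicates A and B. The labels do not say if RNA was pooled over animals, so the p-values measure only the spread between these 8 samples.

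Array medians ranged from 111.8 to 114.1 intensity units. On the first principal component, with 28.1% of the variance, the diets separated (Con arrays from -9.23 to -4.71, CR arrays from 5.25 to 10.1). CR-s replicate B was the odd array on the second (-14.0, against -2.88 to 5.37 for the other 7). Of the hypothalamic markers, Pmch measured 11.09 to 11.53, Oxt 10.96 to 11.70 and Hcrt 9.21 to 9.75 in log2 intensity over the 8 arrays. Others were dim, such as Pomc at 6.21 to 6.58 and Ghrh at 5.86 to 6.18. These levels describe the samples and do not test the tissue label. Of the myelin genes, Mbp measured 12.78 to 13.01. Brightness depends on each probe set, so levels are compared below only between arrays and not between genes.

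Averaged over saline and leptin (4 CR arrays against 4 Con arrays), 12 of the 21 measured genes of the mature oligodendrocyte fell in restricted offspring, and none of the 3 measured precursor genes passed. Of the 31 members, 13 fell at an adjusted p under 0.05 (limma, two-sided, Benjamini-Hochberg over all 14506 genes) and none rose. Over all genes 1.21% passed, 0.882% lower and 0.324% higher. The 13 were Klk6, Cdh19, Tf, Erbb3, Enpp2, Ndrg1, Padi2, Ermn, Apod, Evi2a, Plekhb1, Nkx6-2 and Ugt8, and 12 of them belong to the mature stage. The median log2 difference over the 31 members was -0.28, where the median over all genes was 0.00. Members below 0 numbered 28 of 31, beside 49.7% of all genes. In 20 of the 31 every CR array lay below every Con array, where this held for 6.67% of all genes, and in 0 of 31 above it (4.52%). At an unadjusted p under 0.05, 22 members were lower and 0 higher, beside 9.04% and 6.71% of all genes. The tissue was measured in bulk, so fewer cells of the lineage and less RNA in each cell cannot be told apart. The count of 13 fell to 0 without Con-s replicate B, to 1 without Con-s replicate A or CR-s replicate A, to 3 without Con-l replicate A, to 4 without Con-l replicate B or CR-l replicate B, to 5 without CR-l replicate A and to 7 without CR-s replicate B. Over all genes the share that passed was then 0.0% to 0.186%, and the members' median difference lay between -0.30 and -0.26. The count was also 0 when all 29215 probe sets were tested together, with a smallest member adjusted p of 0.056.

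**Figure D1:**
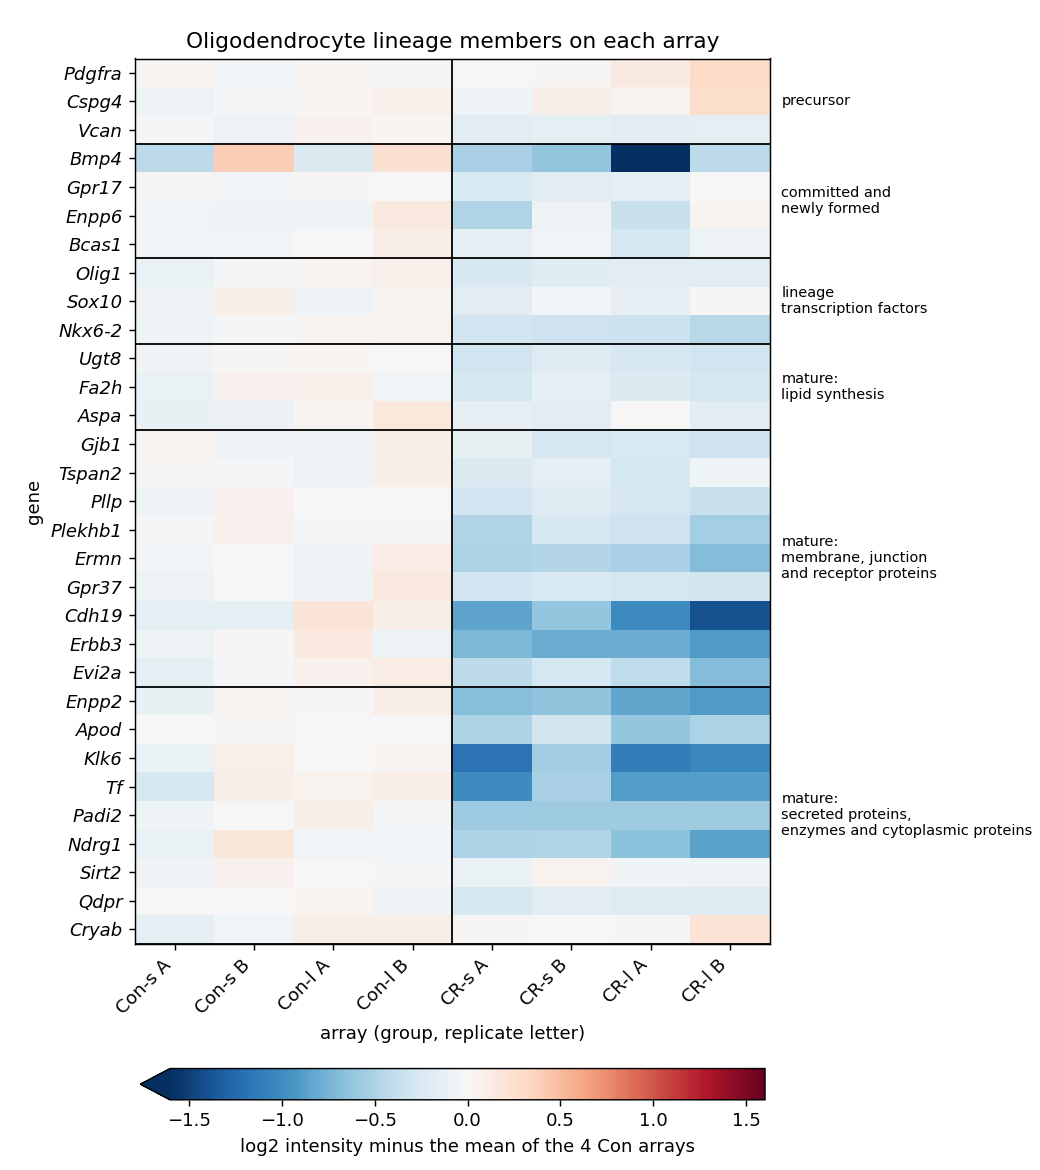
Log2 intensity of each of the 31 measured members (rows, grouped by stage) on each of the 8 arrays (columns), as a difference from that gene's mean over the 4 Con arrays. Blue is lower and red is higher, and the scale ends at 1.6 in either direction. Most mature genes are blue on all 4 CR arrays, Pdgfra and Cspg4 are not, and Bmp4 on CR-l replicate A lies beyond the end of the scale.

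The 3 precursor genes did not move in 1 direction: 2 were higher on average in restricted offspring and 1 was lower, and none passed. Pdgfra, the receptor for platelet-derived growth factor that drives division of the precursors, measured a log2 intensity of 9.29 and 9.21 in Con-s, 9.29 and 9.24 in Con-l, 9.25 and 9.27 in CR-s, and 9.40 and 9.56 in CR-l. Only the CR-l arrays lay above the range of the others, and the averaged log2 difference was 0.11 (95% confidence interval -0.01 to 0.23, adjusted p = 0.355). Cspg4, the NG2 proteoglycan of the precursor surface, measured 7.51 to 7.66 on the Con arrays and 7.52 to 7.87 on the CR arrays. Its difference was 0.09 (interval -0.06 to 0.24, adjusted p = 0.563), and the diets overlapped. Vcan, the matrix proteoglycan versican, was lower on every CR array, at 8.30 to 8.33 against 8.40 to 8.55. The difference of -0.16 (SE 0.04, adjusted p = 0.117) did not pass. Pdgfra, Cspg4 and Vcan are also expressed by cells of vessels or meninges.

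Committed and newly formed cells are marked by Bmp4, a secreted signal of the BMP family, by Gpr17, a receptor that holds cells at this stage, by Enpp6, a choline phosphodiesterase, and by Bcas1. All 4 were lower on average in restricted offspring, beside 49.7% of all genes, and none passed. Their median log2 difference was -0.18. Gpr17 measured 10.69 and 10.63 in Con-s, 10.69 and 10.68 in Con-l, 10.43 and 10.50 in CR-s, and 10.51 and 10.67 in CR-l. Both CR-s arrays lay clearly below the controls, while CR-l replicate B reached the control range (difference -0.14, SE 0.05, adjusted p = 0.239). Enpp6 measured 9.50 to 9.72 in Con, and in CR it was 9.08 and 9.21 on the replicate A arrays but 9.48 and 9.60 on the replicate B arrays (-0.22, SE 0.12, adjusted p = 0.425). Bcas1 had a difference of -0.14 (SE 0.06, adjusted p = 0.332).

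Bmp4 showed the widest spread of all members. It measured 8.20 and 9.02 in Con-s, 8.40 and 8.86 in Con-l, 8.10 and 7.98 in CR-s, and 5.82 and 8.20 in CR-l. The difference of -1.09 (interval -2.22 to 0.03, adjusted p = 0.332) therefore came largely from CR-l replicate A, and without that array it was -0.50 (adjusted p = 0.39). Apart from that array, the CR values lay between 7.98 and 8.20, near or below the lowest control, Con-s replicate A.

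Of the transcription factors of the lineage, Nkx6-2 passed. This homeobox factor is expressed in maturing oligodendrocytes. It measured 7.63 and 7.67 in Con-s, 7.74 and 7.75 in Con-l, 7.39 and 7.37 in CR-s, and 7.35 and 7.25 in CR-l. All 4 CR arrays were below all 4 Con arrays, and Nkx6-2 fell 1.28-fold (log2 -0.36, SE 0.04, adjusted p = 0.0223). Olig1, which is needed for maturation and remyelination, also separated the diets, at 10.34 to 10.52 in Con and 10.19 to 10.28 in CR, but did not pass (-0.20, SE 0.04, adjusted p = 0.0887). Sox10, a factor present through the whole lineage, measured 9.26 to 9.43 in Con and 9.17 to 9.36 in CR. Its difference was -0.08 (interval -0.23 to 0.07, adjusted p = 0.594), and the diets overlapped.

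The galactolipids of myelin are made by a short series of enzymes. Ugt8, which adds galactose to ceramide, measured 12.05 and 12.12 in Con-s, 12.13 and 12.11 in Con-l, 11.79 and 11.90 in CR-s, and 11.84 and 11.79 in CR-l. The groups of the 2 diets did not overlap, and Ugt8 fell 1.21-fold (log2 -0.28, SE 0.05, adjusted p = 0.0454). Fa2h, which hydroxylates the fatty acid of these lipids, measured 11.23 to 11.41 in Con and 11.05 to 11.19 in CR without overlap (-0.23, SE 0.06, adjusted p = 0.138). Aspa, the aspartoacylase that releases acetate from N-acetylaspartate, overlapped between the diets (-0.12, interval -0.25 to 0.01, adjusted p = 0.355).

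All 9 mature genes for membrane, junction and receptor proteins were lower in restricted offspring, and 5 of them passed (median log2 difference -0.41). Of all genes 49.7% were lower and 0.882% passed in that direction. Cdh19, a cadherin of oligodendrocytes and of glia of peripheral nerves, measured 6.40 and 6.42 in Con-s, 6.76 and 6.64 in Con-l, 5.71 and 5.94 in CR-s, and 5.53 and 5.16 in CR-l. The CR-l arrays were the lowest and the Con-l arrays the highest, and Cdh19 fell 1.96-fold (log2 -0.97, SE 0.09, adjusted p = 0.0186). Its probe set was dim, at 35.72 to 108.5 intensity units, where the lowest array median was 111.8. Erbb3, a neuregulin receptor, measured 8.15 and 8.25 in Con-s, 8.39 and 8.15 in Con-l, 7.52 and 7.45 in CR-s, and 7.44 and 7.33 in CR-l. Its diets lay well apart, with each CR array at 7.52 or below and each Con array at 8.15 or above (1.75-fold lower, log2 -0.80, SE 0.06, adjusted p = 0.0116).

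Ermn encodes ermin, a cytoskeletal protein of the late stages of myelination. It measured 10.90 and 10.95 in Con-s, 10.87 and 11.06 in Con-l, 10.45 and 10.48 in CR-s, and 10.43 and 10.25 in CR-l, a 1.46-fold fall (log2 -0.54, SE 0.06, adjusted p = 0.0223). Evi2a, a membrane protein encoded within the Nf1 gene, measured 9.89 and 10.01 in Con-s, 10.11 and 10.16 in Con-l, 9.63 and 9.76 in CR-s, and 9.63 and 9.35 in CR-l, and fell 1.36-fold (adjusted p = 0.0449). Plekhb1 measured 11.49 and 11.59 in Con-s, 11.50 and 11.51 in Con-l, 11.05 and 11.25 in CR-s, and 11.19 and 10.98 in CR-l, and fell 1.33-fold (adjusted p = 0.0464). In all 3 genes every CR array lay below every Con array. The other 4 of this group did not pass: the proteolipid Pllp (-0.29, SE 0.05, adjusted p = 0.0592), the orphan receptor Gpr37 (-0.28, SE 0.06, adjusted p = 0.0898), the gap junction protein gene Gjb1, which encodes a connexin, (-0.24, SE 0.06, adjusted p = 0.132) and the tetraspanin Tspan2 (-0.18, SE 0.07, adjusted p = 0.269).

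Among the 9 measured genes for secreted proteins, enzymes and cytoplasmic proteins of the mature cell, 6 fell, beside 0.882% of all genes. The median log2 difference was -0.57, and Cryab was the only one above 0. Klk6, a secreted serine protease, measured 10.00 and 10.18 in Con-s, 10.10 and 10.13 in Con-l, 8.92 and 9.54 in CR-s, and 8.99 and 9.07 in CR-l. CR-s replicate B was nearest to the controls, and Klk6 fell 1.96-fold (log2 -0.97, SE 0.13, adjusted p = 0.0236). Tf, the iron carrier transferrin, measured 10.92 and 11.28 in Con-s, 11.24 and 11.28 in Con-l, 10.18 and 10.66 in CR-s, and 10.29 and 10.30 in CR-l. CR-s replicate B was again the highest CR array, and Tf fell 1.77-fold (log2 -0.82, SE 0.12, adjusted p = 0.0325). Enpp2 encodes autotaxin, the secreted enzyme that makes lysophosphatidic acid and that is also strongly expressed in choroid plexus. It measured 11.30 and 11.45 in Con-s, 11.38 and 11.52 in Con-l, 10.73 and 10.77 in CR-s, and 10.59 and 10.51 in CR-l. Its fall of 1.70-fold had the smallest adjusted p of all members (log2 -0.76, SE 0.06, adjusted p = 0.00977).

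Ndrg1, a cytoplasmic protein that is mutated in a demyelinating neuropathy, measured 9.89 and 10.19 in Con-s, 9.97 and 9.96 in Con-l, 9.52 and 9.52 in CR-s, and 9.35 and 9.15 in CR-l. It fell 1.54-fold (log2 -0.62, SE 0.08, adjusted p = 0.0223). Padi2, a deiminase that citrullinates myelin basic protein, measured 10.03 and 10.10 in Con-s, 10.20 and 10.08 in Con-l, 9.52 and 9.54 in CR-s, and 9.54 and 9.54 in CR-l. The 4 CR arrays were almost equal, and Padi2 fell 1.48-fold (log2 -0.57, SE 0.05, adjusted p = 0.0116). Apod, the lipid carrier apolipoprotein D, which meningeal and perivascular cells also express, measured 12.95 and 12.96 in Con-s, 12.94 and 12.94 in Con-l, 12.45 and 12.65 in CR-s, and 12.32 and 12.44 in CR-l. Its controls spanned only 12.94 to 12.96, and Apod fell 1.39-fold (log2 -0.48, SE 0.06, adjusted p = 0.0223).

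The remaining 3 of this group did not pass. Qdpr, the dihydropteridine reductase that recycles tetrahydrobiopterin, separated the diets at 9.51 to 9.60 in Con and 9.30 to 9.39 in CR (-0.21, SE 0.04, adjusted p = 0.0872). Sirt2, a tubulin deacetylase abundant in oligodendrocytes, measured 12.24 to 12.37 in Con and 12.19 to 12.35 in CR (-0.05, interval -0.17 to 0.08, adjusted p = 0.724). Cryab, a small heat shock protein, had a difference of 0.05 (interval -0.09 to 0.20, adjusted p = 0.74). The intervals of Sirt2 and Cryab do not reach the size of the falls of Ermn, Apod or Padi2, although these genes were not tested against each other.

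**Figure D2:**
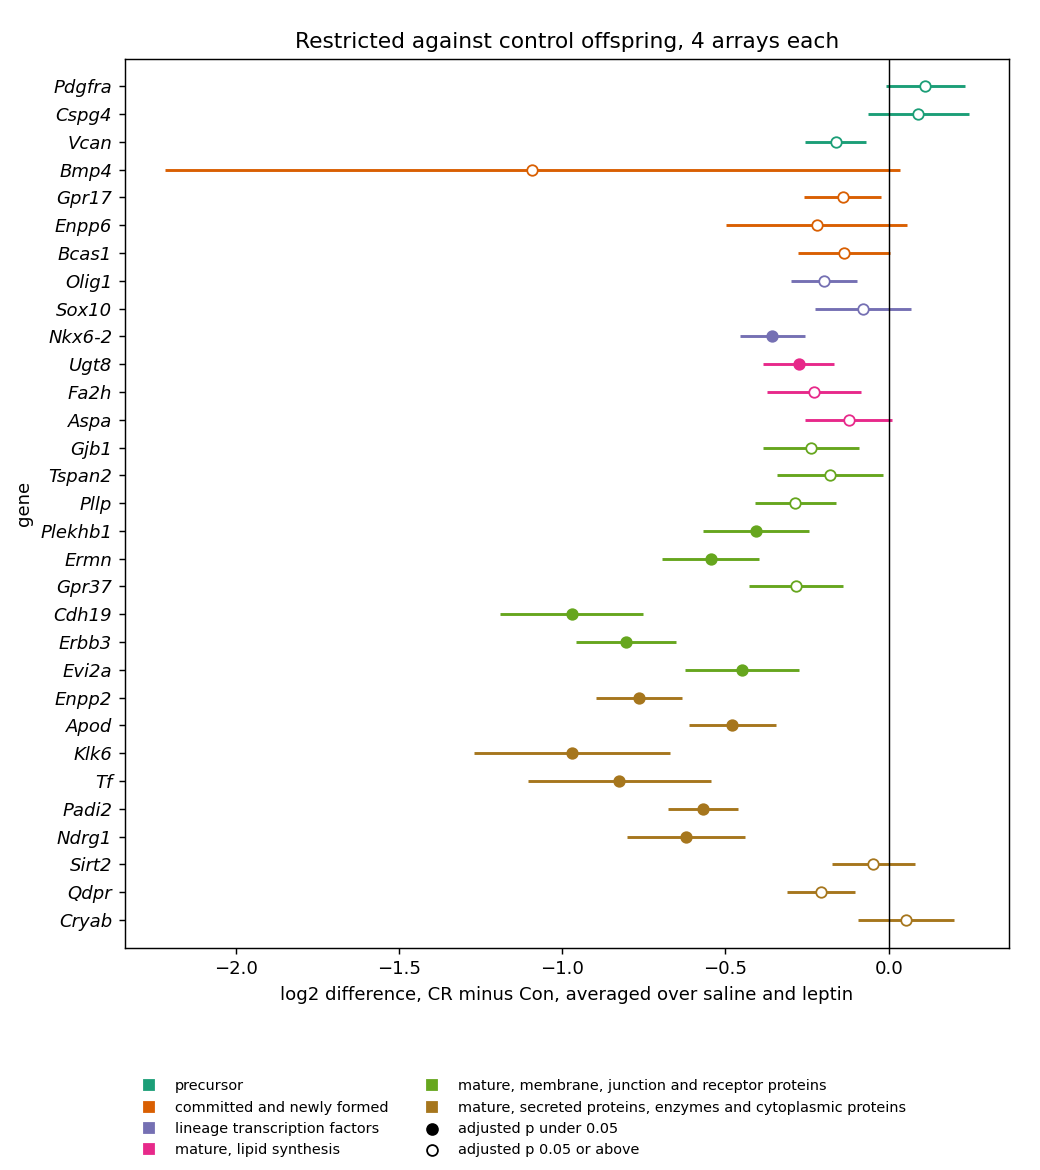
Log2 difference between restricted and control offspring (horizontal axis, averaged over saline and leptin, 4 arrays against 4) for each member (vertical axis), with its 95% confidence interval from the limma fit. Colours mark the stage, and filled points had an adjusted p under 0.05. The filled points are 12 mature genes and Nkx6-2, and they run from -0.28 (Ugt8) to -0.97 (Cdh19 and Klk6).

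Read by stage, the median log2 difference was 0.09 for the 3 precursor genes, -0.18 for the 4 committed and newly formed genes, -0.20 for the 3 transcription factors and -0.41 for the 21 mature genes. Within the mature genes it was -0.23 for lipid synthesis, -0.41 for membrane, junction and receptor proteins and -0.57 for the secreted, enzymatic and cytoplasmic group. Of the 21 mature genes 20 were lower, beside 49.7% of all genes, and 12 fell, beside 0.882%. In 17 every CR array lay below every Con array, beside 6.67%. The precursor median was 0.12 without CR-s replicate A, 0.05 without CR-s replicate B, 0.15 without CR-l replicate A and 0.03 without CR-l replicate B. That of the committed genes ran from -0.25, without CR-l replicate B, to -0.11, without CR-l replicate A. The stages were not tested against each other. On single arrays the median of the mature genes, relative to the Con mean, lay between -0.08 and 0.03 on the Con arrays and was -0.41, -0.27, -0.33 and -0.51 on CR-s A, CR-s B, CR-l A and CR-l B. For the precursor genes the same 4 values were -0.07, 0.01, 0.05 and 0.28.

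Because 13 members fell in the same comparison, the upstream sequence of those with an entry in RefSeq's promoter table (GRCr8) was searched for 3 short motifs of lineage factors. The 250 bases before the gene start were read on both strands for CAGCTG, an E-box bound by OLIG2 that reads the same on both strands, for ACAAAG, a core bound by SOX factors, and for CTGGNAC, bound by MYRF. These motifs do not overlap in the windows printed here. Of 31 members 22 had an entry, among them 8 of the 13 that fell. CAGCTG was found in 3 of the 22 and in 11.9% of all 27457 promoters, ACAAAG in 3 of the 22 and in 16%, and CTGGNAC in 2 of the 22 and in 14.5%. Among the 8 that fell the counts were 1, 2 and 0. The matches upstream of Apod and Klk6 are shown because they are the matches that lie before members that fell, apart from a further ACAAAG match near the far end of the Apod window. They are printed 5′ to 3′ on the gene's strand with the match in capitals, where CTTTGT is ACAAAG on the opposite strand, and they are descriptions of letters, not of binding sites.
Apod, CAGCTG, 178 to 173 bases before the start, chr11:82936017-82936072, plus strand: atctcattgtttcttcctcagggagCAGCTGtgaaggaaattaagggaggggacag
Apod, ACAAAG, 133 to 128 bases before the start, chr11:82936062-82936117, plus strand: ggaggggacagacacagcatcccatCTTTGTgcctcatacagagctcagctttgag
Klk6, ACAAAG, 202 to 197 bases before the start, chr1:103415289-103415344, plus strand: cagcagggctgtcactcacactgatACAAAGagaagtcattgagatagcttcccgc

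The diet difference was then read separately under saline and under leptin. CR-s against Con-s and CR-l against Con-l share no array, so each is a separate set of 2 arrays against 2. Members were lower in both comparisons in 28 of 31, where this held for 30.9% of all genes. Both CR arrays lay below both Con arrays in each of the comparisons in 23 of 31, beside 9.13% of all genes. The 3 members not lower in both were Pdgfra, Cspg4 and Cryab. The median log2 difference of the members was -0.24 under saline and -0.31 under leptin, where the medians of all genes were 0.00 in each.

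Under saline alone no member and no other gene passed (0 of 31 and 0.0% of all genes, limma). Of the 31, 28 were below 0, beside 51.7% of all genes, and 18 were lower and 0 higher at an unadjusted p under 0.05, beside 5.1% and 3.4% of all genes. The largest differences were those of Klk6 (-0.86, SE 0.18, adjusted p = 0.321), Erbb3 (-0.72, SE 0.09, adjusted p = 0.176), Tf (-0.68, SE 0.17, adjusted p = 0.378) and Enpp2 (-0.63, SE 0.08, adjusted p = 0.176). Padi2, at -0.54 (SE 0.06), shared the adjusted p of 0.176. Cdh19 differed by -0.58 (SE 0.13) and Ndrg1 by -0.52 (SE 0.11). With limma's trend and robust settings 7 members passed, beside 0.455% of all genes.

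Under leptin 1 member passed, where 0.0207% of all genes did (0.0138% lower and 0.00689% higher). Of the 31, 28 were below 0, beside 49.5% of all genes. Enpp2 fell in CR-l against Con-l (log2 -0.90, SE 0.08, adjusted p = 0.0339). The call of Enpp2 was lost when any single array was left out, with the groups compared alone and with all probe sets tested together. Without CR-l replicate A, Cdh19 passed instead. At an unadjusted p under 0.05, 23 members were lower and 1, Pdgfra, was higher (0.21, SE 0.07, adjusted p = 0.262), beside 7.27% and 6.92% of all genes. Cdh19 (-1.36, SE 0.13, adjusted p = 0.0513), Erbb3 (-0.89, SE 0.09, adjusted p = 0.0535) and Padi2 (-0.60, SE 0.06, adjusted p = 0.0535) came next. Klk6 differed by -1.08 (SE 0.18) and Tf by -0.97 (SE 0.17). With trend and robust settings 14 members passed, beside 3.23% of all genes.

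**Figure D3:**
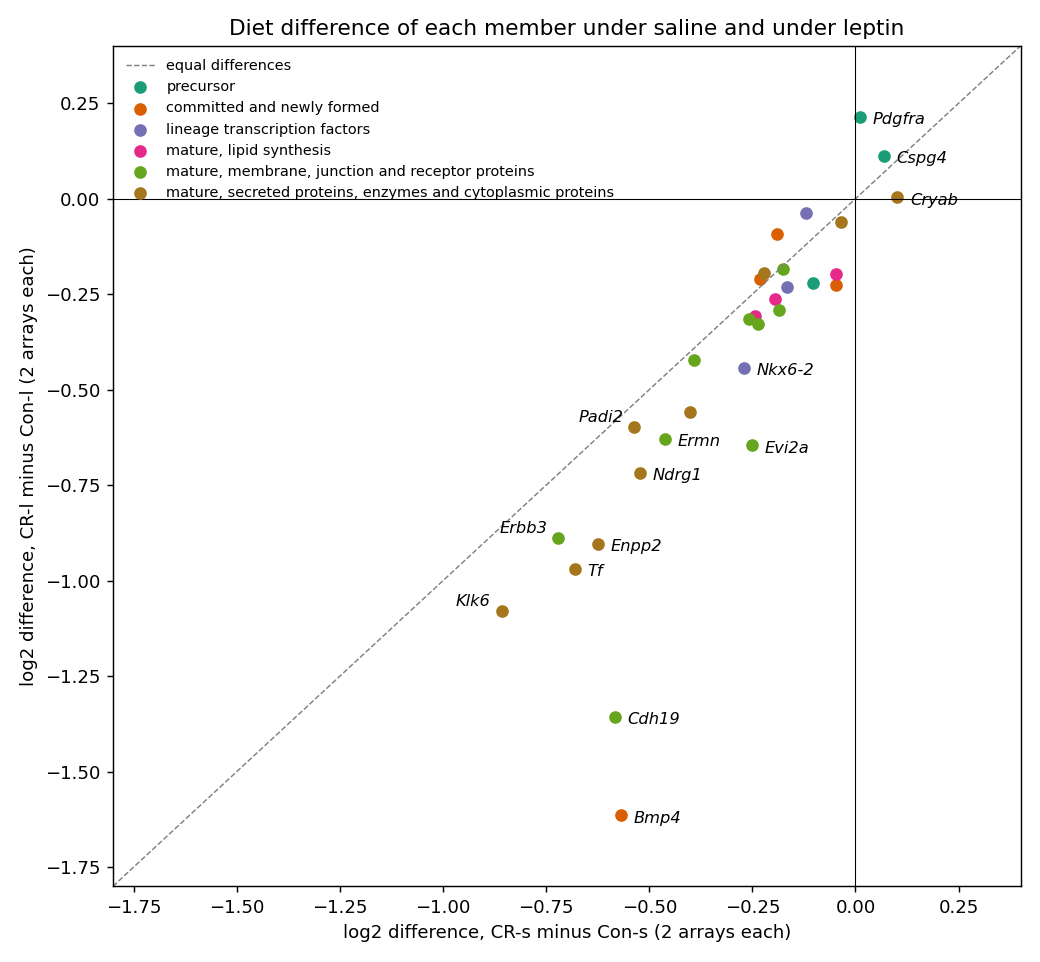
Log2 difference of each of the 31 members between restricted and control offspring under saline (horizontal axis) and under leptin (vertical axis), 2 arrays against 2 in each. The 2 axes share no array, colours mark the stage, and the dashed line marks equal differences. Most members lie in the lower left region and below the line, with Cdh19 and Bmp4 farthest below it and Pdgfra and Cspg4 above 0 on both axes.

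Whether leptin altered the diet difference was tested as the interaction, the diet difference under leptin minus that under saline. No member passed (0 of 31, limma), and 3 had an unadjusted p under 0.05, all below 0, beside 2.73% of all genes below 0 and 2.42% above. They were Cdh19 (-0.77, SE 0.19), Evi2a (-0.40, SE 0.15) and Enpp2 (-0.28, SE 0.11), each at an adjusted p of 0.898. The diet difference was more negative under leptin in 25 of 31 members, where this held for 47.5% of all genes. Counts of this size also arose between replicates of a group. Replicate B was above A in 24 of 31 members in Con-s and 25 of 31 in CR-s, beside 48.1% and 48.2% of all genes. The count under leptin is therefore not a test of the interaction. Bmp4 had the largest interaction value (-1.05, SE 0.96), and its spread is given above. For Padi2, Plekhb1 and Ugt8 the interaction was -0.06, -0.03 and -0.06.

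In restricted offspring leptin itself (CR-l against CR-s) moved no member past the threshold (0 of 31, limma). At an unadjusted p under 0.05, 3 were lower and 1 higher, beside 2.81% and 3.05% of all genes. The lower ones were Cdh19 (-0.48, interval -0.79 to -0.17), Ndrg1 (-0.27, interval -0.53 to -0.02) and Enpp2 (-0.20, interval -0.39 to -0.01), and the higher one was Pdgfra (0.22, interval 0.04 to 0.39), each at an adjusted p of 0.8075. Without CR-s replicate B none of the 31 had an unadjusted p under 0.05. Of the 31, 20 were below 0, beside 47.0% of all genes, and the median was -0.04. Padi2 stood at 0.01, Tf at -0.13 and Klk6 at -0.20.

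Among control offspring, Con-l against Con-s, no member passed either (0 of 31, limma), and at an unadjusted p under 0.05, 0 were lower and 1 higher, beside 2.01% and 2.18% of all genes. The higher one was Aspa (0.22, interval 0.03 to 0.41, adjusted p = 0.9975). Members below 0 numbered 6 of 31, where 50.3% of all genes were below 0, and the median was 0.04. Cdh19 had the largest difference, 0.30. Averaged over the diets, leptin against saline gave 0 calls, 14 of 31 members below 0 beside 47.8% of all genes, and 1 member higher and 0 lower at an unadjusted p under 0.05, beside 2.52% and 2.36%. That member was again Aspa (0.14, SE 0.06).

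CR-l against Con-s asks how far leptin-treated restricted offspring stood from saline-treated controls, and it shares its arrays with comparisons given above. No member passed (0 of 31, limma), where 0.0138% of all genes did, 0.00689% in each direction. At an unadjusted p under 0.05, 19 were lower, beside 6.5% of all genes, and 2 were higher, beside 5.71%. Of the 31 members 27 were below 0, beside 49.6% of all genes, and the median was -0.27. The 2 higher ones were Pdgfra (0.23, SE 0.07) and Cspg4 (0.22, SE 0.09). Bmp4 stood at -1.59 (SE 0.68), Cdh19 at -1.06, Klk6 at -1.06, Enpp2 at -0.83, Erbb3 at -0.82, Tf at -0.81 and Ndrg1 at -0.80.

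Other genes of the lineage were read in the comparison averaged over treatments. There 49.7% of all genes were lower, 0.882% fell and 0.324% rose. Of 19 further mature oligodendrocyte genes all 19 were lower and 5 fell (median log2 difference -0.22), with the smallest p for the sphingosine-1-phosphate receptor S1pr5 (-0.62, SE 0.08, adjusted p = 0.0223) and the serine incorporator Serinc5 (-0.37, SE 0.05, adjusted p = 0.0325). All 8 measured structural myelin genes were lower, 1 fell and the median was -0.24. That one was Cnp (-0.27, SE 0.04, adjusted p = 0.0449), while Mobp, next by p, did not pass (-0.23, SE 0.05, adjusted p = 0.0702). Of 10 further precursor genes 5 were lower and 5 higher, none passed, and the median was 0.00. Sox8 (-0.13, adjusted p = 0.231) and Sox5 (0.10, adjusted p = 0.318) had the smallest p.

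Of 33 signals and regulators of oligodendrocyte development, 23 were lower, 1 fell and none rose (median -0.05). The shares of all genes were 49.7%, 0.882% and 0.324%. Zeb2, a transcription factor that opposes BMP signalling during differentiation, fell 0.25 on the log2 scale (log2 -0.25, SE 0.04, adjusted p = 0.0404). Igf1r, the receptor for insulin-like growth factor 1, had a difference of 0.22 (SE 0.04, adjusted p = 0.0639).

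**Figure D4:**
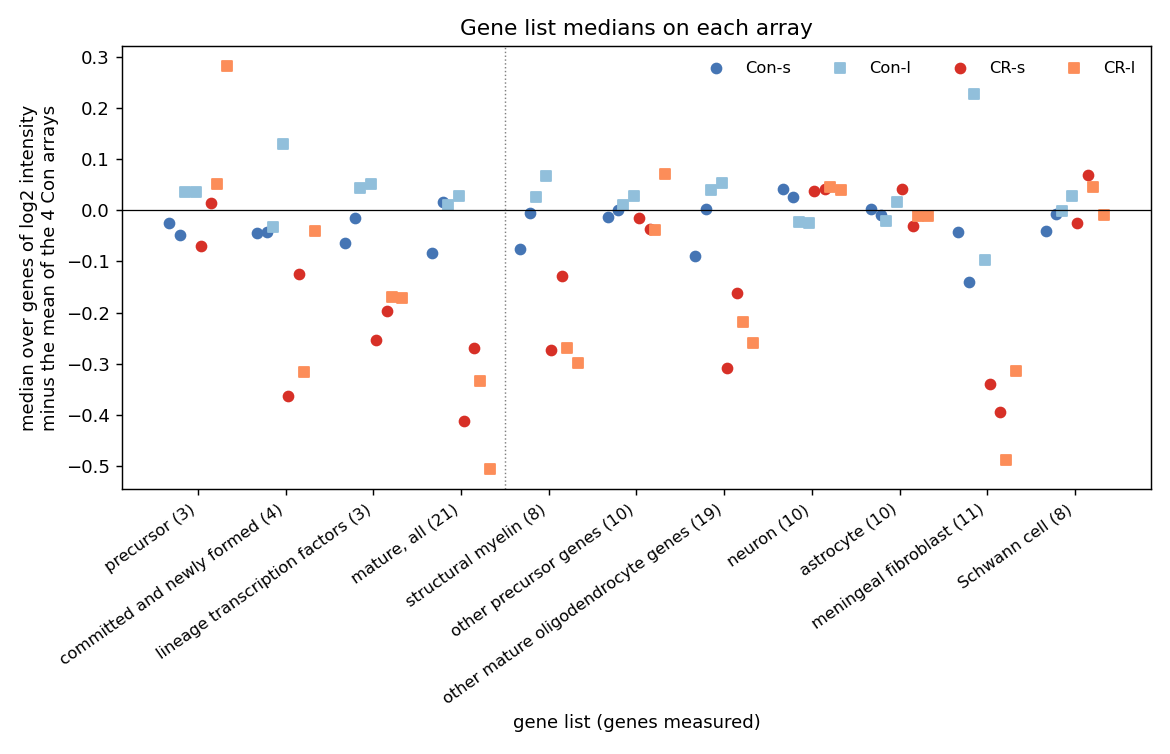
Median over the genes of each list (horizontal axis, with the number of genes measured) of the log2 intensity on each array minus that gene's mean over the 4 Con arrays (vertical axis). Circles are saline, squares are leptin, blue is Con and red or orange is CR. To the left of the dotted line are stages of the members, among which the mature genes lie between -0.51 and -0.27 on the CR arrays, and to the right are other lists.

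Markers of some other cell types were also lower in restricted offspring, and their part in the members' differences was not tested. The counts below stand beside 49.7% of all genes lower and 0.882% that fell. All 11 measured meningeal fibroblast genes were lower and 3 fell (median -0.40), and the sum of their intensities was 3342 to 3645 in Con-s, 3497 to 4607 in Con-l, 2479 to 2498 in CR-s and 2403 to 2843 in CR-l. The matrix protein gene Ogn (-1.21, SE 0.13, adjusted p = 0.0223) had the smallest p. Within Con-l, replicate B was below replicate A in all 11 of these genes (median -0.34), while the oligodendrocyte lineage members differed by a median of 0.02 between the same arrays. All 6 measured red blood cell genes were lower, 5 fell (median -1.23), and their sums were 4159 to 5821 in Con-s, 3846 to 4561 in Con-l, 2012 to 2019 in CR-s and 1358 to 2171 in CR-l. All 9 mural cell genes were lower, 2 of them passing (median -0.09), with sums of 4242 to 4252, 4317 to 4511, 3683 to 3862 and 3608 to 3643 in the same order. Of 10 endothelial genes 8 were lower and none passed (median -0.10), with sums of 2587 to 2614, 2544 to 2696, 2381 to 2429 and 2514 to 2538. No value of these lists was at 0.

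The other lists held genes that went both ways, with medians near 0. Among all genes 49.7% were lower, 0.882% fell and 0.324% rose. Schwann cell genes, the myelinating glia of peripheral nerves that also express Erbb3 and Cdh19, were lower in 3 of 8 (median 0.07, none passing), and their summed intensity was 729.0 to 746.0 in Con-s, 759.7 to 768.4 in Con-l, 750.5 to 781.3 in CR-s and 743.8 to 823.8 in CR-l. These probe sets were dim, from 5.56 (Cldn19) to 7.73 (Scn7a) in log2 intensity, without a detection call, so they may not show a fall. The part of peripheral glia was not tested. Choroid plexus genes were lower in 5 of 9 (median -0.01, mean -0.13), with Kcnj13 falling (-1.17, SE 0.14, adjusted p = 0.0223). Astrocyte genes were lower in 5 of 10 (median 0.00, mean -0.13), with Gfap falling (-0.94, SE 0.12, adjusted p = 0.0233). Aqp4, next by p, did not pass (-0.42, SE 0.08, adjusted p = 0.0702). Every CR array lay below every Con array in 3 of the 10 and above in 2, beside 6.67% and 4.52% of all genes. Neuronal genes were lower in 3 of 10 (median 0.05, none passing). Microglial genes were lower in 4 of 9 (median 0.00), and 1 of them, Ctss, rose (0.25, SE 0.04, adjusted p = 0.0383). Hypothalamic neuron genes were lower in 7 of 14 (median 0.00), with 1 falling and 2 rising.

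In the saline groups most members were higher on replicate B. In Con-s replicate B was above replicate A in 24 of 31 members (median 0.07) and in CR-s in 25 of 31 (median 0.09), where over all genes the shares were 48.1% and 48.2%. In Con-l the count was 18 of 31 (43.7% of all genes) and in CR-l 14 of 31 (48.7%). The median absolute difference between replicates over the members was 0.08, 0.05, 0.10 and 0.12 in Con-s, Con-l, CR-s and CR-l.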

How the data were processed

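The deposited values are linear intensities per probe set, which the authors background-corrected, normalized and summarised with RMA in Affymetrix Expression Console, per the submitters' processing notes; the version and genome build are not given in the sources used here. That the scale is linear was read from the values. They were log2-transformed and not normalized again. Of 29215 probe sets, 15310 had 1 gene symbol, 323 several and the rest none. Symbols were updated through gene number or accession against RefSeq (GRCr8), and the brightest probe set of each gene was kept (14506 genes, no filter on dim ones).

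A single limma model (limma 3.58.1, R 4.3.3, 4 group means, 4 residual and 3.21 prior degrees of freedom) gave all 8 comparisons. A call is an adjusted p (Benjamini-Hochberg, all genes) under 0.05. The script was tested on simulated data. All 31 measured members are named. Of other lists, the 2 genes with the smallest unadjusted p in the averaged diet comparison may be named, beside markers read for the tissue. Members and lists were chosen with earlier results of these data known. Lists are described by counts and medians, with no set test. Number of arrays limits the precision.

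Over all genes, same-lettered replicates did not deviate together across groups (correlations of deviations from -0.06 to 0.11), so the letters were not taken as pairs. Among the members, replicate B was above A in 24 of 31 in Con-s and 25 of 31 in CR-s. In Con-l and CR-l the counts were 18 and 14 of 31. With the replicate block 10 members passed in the averaged diet comparison, beside 0.6% of all genes. Alternatives changed the probe set choice, the filter, the variance model, the normalization, the log offset, the replicate block and the samples fitted.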

Additional observations from a re-analysis of the deposited data

Results flagged for a closer look

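For each member the 4 Con arrays and the 4 CR arrays were searched for an array far from the other 3 (a gap to its neighbour above Dixon's 95% critical share of the range), and 6 of 62 such sets held one. Chance gives this in about 1 of 20 sets. Bmp4 measured 5.82 on CR-l A, the lowest CR array. Tf measured 10.92 on Con-s A, the lowest Con array. Gpr17 measured 10.63 on Con-s B, the lowest Con array, Enpp6 measured 9.72 on Con-l B, the highest, and Plekhb1 measured 11.59 on Con-s B, the highest. Padi2 measured 9.52 on CR-s A, the lowest of 4 nearly equal CR arrays. No member had a diet difference that passed the test of the interaction or that ran in opposite directions on all arrays of the 2 treatments.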

How the results depend on the processing

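In the diet comparison averaged over treatments, 13 members passed. The count was 0 with all probe sets tested together and 0 to 7 when 1 array was left out, and it stayed within 1.5 times of 13 in the other alternatives, at 10 with the replicate block, 10 with quantile normalization and 18 with the upper 60 percent of genes or with trend and robust settings. The share of all genes that passed was 1.21% as reported and 0.6%, 1.17%, 7.0% and 5.13% under these 4. All 13 stayed below 0 in each alternative that tested them. Under saline (CR-s against Con-s) 3 members passed among the upper 60 percent of genes, beside 0.184% of the genes tested. With trend and robust settings 7 passed, beside 0.455%. Under leptin (CR-l against Con-l) the count of 1 became 11 with the upper 60 percent, 14 with trend and robust settings and 11 with an offset of 16. Of all genes tested 2.86%, 3.23% and 0.986% then passed. The count became 4 with quantile normalization and 4 with cyclic loess, beside 0.165% of all genes in each. With all probe sets, the replicate block or the groups compared alone the count was 0, beside 0.0%. For CR-l against Con-s the count of 0 became 8, 12 and 7 with the upper 60 percent, trend and robust settings and the offset. The shares of all genes tested were 1.18%, 1.47% and 0.29%. In the interaction, the averaged leptin comparison and both comparisons of leptin with saline within a diet the count was 0 in every alternative run. The interaction could not be fitted with the groups compared alone. Cryab (0.05) ranged from -0.0089, without CR-l replicate B, to 0.11 when single arrays were left out. Of the members' averaged diet differences in alternatives, 407 kept direction and side of the threshold, 100 no longer passed and 18 newly passed. Of the stage medians over all comparisons, 39 moved by more than the spread between replicates and 1041 did not. Why these counts moved was not tested, beyond the fewer arrays or the different number of features tested. Dim probe sets such as that of Cdh19, which the filter removed, have no detection call here.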
